A study of Homo sapiens with 3 samples.

Results

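Chemokines are small secreted or membrane-bound proteins that draw leukocytes along a gradient, and epithelial cells make a set of them at body surfaces and in tumours. The data described here are those of 10 chemokine genes, CXCL1, CXCL2, CXCL3, CXCL5, CXCL8, CXCL16, CXCL17, CCL20, CCL28 and CX3CL1, chosen by symbol and matched by Ensembl gene ID among the 56632 genes of the tables. All 10 were found. The choice was made with earlier results of these data in view, the CXCL17 levels with GSK484 and the control compound among them, so the values of the comparison are given as descriptions. RNA was sequenced from MCF10Ca1h, an established tumour-forming human breast epithelial line of the MCF10 series, grown with horse serum. The groups hold 1 library each: untreated cells (NT, time not given), cells exposed to GSK484 over 72 h, and cells exposed over 72 h to a control compound (CON). GSK484 is an inhibitor of PADI4, an enzyme that converts arginine in proteins to citrulline, and the study's title asks about PADI4 and breast cancer stem cells. The control compound is GSK107 in the treatment text and GSK106 in the name of that library's table. No dose is given.

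The chemokines fall into families by the spacing of their first cysteines. CXCL1, CXCL2, CXCL3, CXCL5 and CXCL8 are CXC chemokines that carry a glutamate-leucine-arginine motif, act through CXCR2 (CXCL8 also through CXCR1) and attract neutrophils. Their genes lie in a cluster on chromosome 4 and are classic targets of the transcription factor NF-kB, which is switched on by interleukin 1, tumour necrosis factor and microbial products. CXCL16 and CX3CL1 are made as membrane proteins on mucin-like stalks and are released by ADAM proteases. CCL20 draws cells with CCR6, CCL28 draws cells with CCR10 at mucosal surfaces, and CXCL17 is a mucosal chemokine whose receptor is debated.

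The promoters of CXCL1, CXCL2, CXCL3, CXCL5 and CXCL8 share a short kappa B sequence, the kind of sequence NF-kB binds. It is shown here because these genes had very different RNA levels. Promoters of the other genes of the cluster were not examined. Each line gives the 120 bases before the annotated start, from RefSeq promoters on GRCh38.p14, with matches to the kappa B sequence GGAATTTCC, the TATA box TATAAA and its variant CATAAA in capitals.
CXCL8 (chr4:73740449-73740568, plus strand): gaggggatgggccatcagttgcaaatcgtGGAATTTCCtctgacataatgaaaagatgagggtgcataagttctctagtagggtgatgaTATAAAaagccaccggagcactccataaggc
CXCL1 (chr4:73869273-73869392, plus strand): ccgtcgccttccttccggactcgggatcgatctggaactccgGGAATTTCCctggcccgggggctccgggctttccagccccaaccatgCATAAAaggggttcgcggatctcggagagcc
CXCL2 (chr4:74099196-74099315, minus strand): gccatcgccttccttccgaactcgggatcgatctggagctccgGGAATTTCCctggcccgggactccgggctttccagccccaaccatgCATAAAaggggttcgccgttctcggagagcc
CXCL3 (chr4:74038690-74038809, minus strand): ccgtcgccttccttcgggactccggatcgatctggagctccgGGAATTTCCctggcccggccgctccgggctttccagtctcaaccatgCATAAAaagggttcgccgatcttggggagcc
CXCL5 (chr4:73998678-73998797, minus strand): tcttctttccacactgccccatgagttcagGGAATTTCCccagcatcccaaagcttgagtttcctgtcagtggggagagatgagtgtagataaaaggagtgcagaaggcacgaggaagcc
CXCL17 (chr19:42442947-42443066, minus strand): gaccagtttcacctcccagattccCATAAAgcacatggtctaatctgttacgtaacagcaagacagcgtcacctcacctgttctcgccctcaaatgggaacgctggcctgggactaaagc

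Promoters were found for 8 of the 10 genes, not for CXCL16 and CX3CL1. On either strand of the 250 bases before the start, GGAATTTCC was present in all 5 neutrophil-attracting CXC genes of the set. It was present in 0.413% of 35116 annotated promoters. It began 91 bases before the start of CXCL8, 90 before CXCL5, 78 before CXCL1 and CXCL3, and 77 before CXCL2. These letters were not found in the windows of CXCL17, CCL20 and CCL28. TATAAA was present in CXCL8 and CCL20, and in 10.7% of all promoters. CATAAA lay 31 bases before the start of CXCL1, CXCL2 and CXCL3 and further upstream in CXCL17 and, on the minus strand, in CCL20, and 9.64% of all promoters held it. The windows of CXCL1 and CXCL2 were 93.4% identical, those of CXCL1 and CXCL3 90.8%, and those of CXCL1 and CXCL5 51.9%. A match is a description of the letters, not evidence of binding.

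The library totals were 70555229 expected counts in NT, 92980847 in CON and 77220120 with GSK484. No group was replicated, which leaves no error between samples and no test of the conditions, and each interval is a 95% interval for counting error only. CPM is the expected count per 1e6 of the scaled library total, and TPM is the deposited value per transcript length, used to compare genes with each other. A gene is called measured at 1 CPM or more in at least 1 library, and 9 of the 10 genes were, all but CXCL5. All 12 epithelial markers were measured, KRT5 at 1212 to 1453 CPM. The pan-leukocyte marker PTPRC was at 0 counts throughout, as were CD3E, MS4A1 and MPO. Among the leukocyte markers reported here, the myeloid genes CD14, CD68 and ITGAM were measured, CD14 at 6.27 to 9.15 CPM, CD68 at 3.58 to 4.10 and ITGAM at 0.78 to 1.08. Fibroblast markers summed to 15.2 to 19.0 CPM and the matched endothelial markers to 1.30 to 1.73. The measured fibroblast markers were FAP, at 8.35 to 11.89 CPM with divided reads, and COL1A1, at 5.88 to 7.56, whereas COL3A1, DCN and LUM were at 0 counts throughout. The only measured endothelial marker was CDH5, at 0.97 CPM in NT, 1.57 in CON and 0.94 with GSK484. In bulk RNA, fewer cells that express a gene and less RNA per cell cannot be told apart.

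The neutrophil-attracting chemokines CXCL1 and CXCL8 dominated the set. CXCL1 (ENSG00000163739) stood at 407.2 TPM in NT, 446.6 in CON and 445.4 with GSK484, between ranks 303 and 335 of all genes in their library. CXCL8 (ENSG00000169429) stood at 156.7 TPM in NT, 132.9 in CON and 146.3 with GSK484. These 2 genes made up 91.2%, 90.6% and 91.7% of the summed TPM of the 10 genes in the same order of libraries. CXCL2 was at 14.1 TPM in NT, 16.7 in CON and 15.1 with GSK484, and CXCL3 at 4.06, 3.66 and 4.46. CXCL1 thus had 26.8 to 29.6 times the TPM of CXCL2 and 99.9 to 122 times that of CXCL3, whose promoter windows are the close copies shown above. CXCL5, with the same kappa B letters, was at 0 counts in each library, which allows up to 3 counts, or 0.042 CPM in NT, 0.033 in CON and 0.039 with GSK484. The upper ends of the exact Poisson intervals, which are 2-sided, are 0.052, 0.040 and 0.047 CPM.

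**Figure D1:**
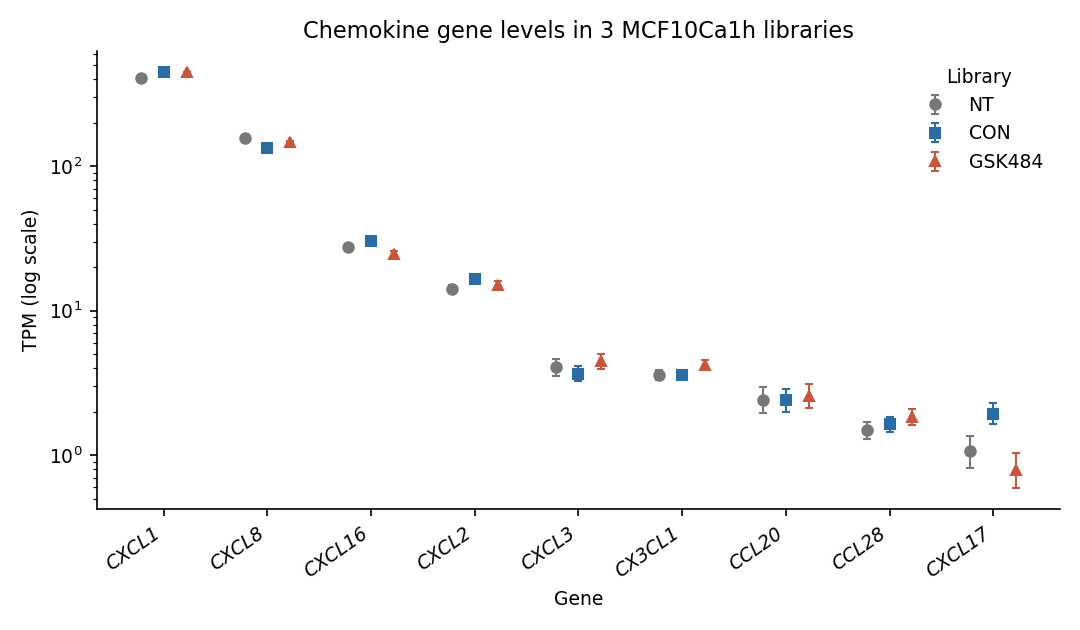
TPM on a log axis for the 9 measured chemokine genes in each library, with 95% counting intervals, genes ordered by their mean over libraries. CXCL1 at 407.2 to 446.6 TPM and CXCL8 at 132.9 to 156.7 stand above the rest, and CXCL17 spans 0.79 to 1.94; CXCL5, at 0, is not drawn.

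The membrane-bound CXCL16 came next to CXCL8, at 27.7 TPM in NT, 30.1 in CON and 24.7 with GSK484. The range of each of CXCL1, CXCL8, CXCL16 and CXCL2 over the 3 libraries lay apart from its neighbours in the order of levels. CXCL3 was not separated from CX3CL1, the other membrane-bound member, which was at 3.6 TPM in NT, 3.6 in CON and 4.24 with GSK484. CCL20 varied little, at 2.41, 2.40 and 2.57 TPM, and lay below both. CCL28 was at 1.49 TPM in NT, 1.63 in CON and 1.84 with GSK484. CXCL17 was lower than CCL28 in NT (1.06 TPM) and GSK484 (0.79 TPM) and above it in CON (1.94 TPM). That was the only change in the order of the 10 genes between libraries, and in CON the counting intervals of CXCL17 (1.64 to 2.28 TPM) and CCL28 (1.45 to 1.83) overlapped.

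Along chromosome 4 expressed chemokine genes lay among others with few or no counts. RefSeq places 9 protein-coding genes from CXCL8 to CXCL2, all of them chemokines of the CXC family, in the order CXCL8, CXCL6, PF4V1, CXCL1, PF4, PPBP, CXCL5, CXCL3 and CXCL2. CXCL6, a near relative of CXCL5 that also attracts neutrophils, had 1 count in CON and 0 in the other libraries. The platelet chemokine genes were also near 0, with PF4V1 at 0 counts in all 3 libraries, PPBP at 1 or fewer and PF4 at 2 in NT, 5 in CON and 5 with GSK484. CXCL1 lies between PF4V1 and PF4 and had 21268 counts in NT, 32446 in CON and 25421 with GSK484.

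**Figure D2:**
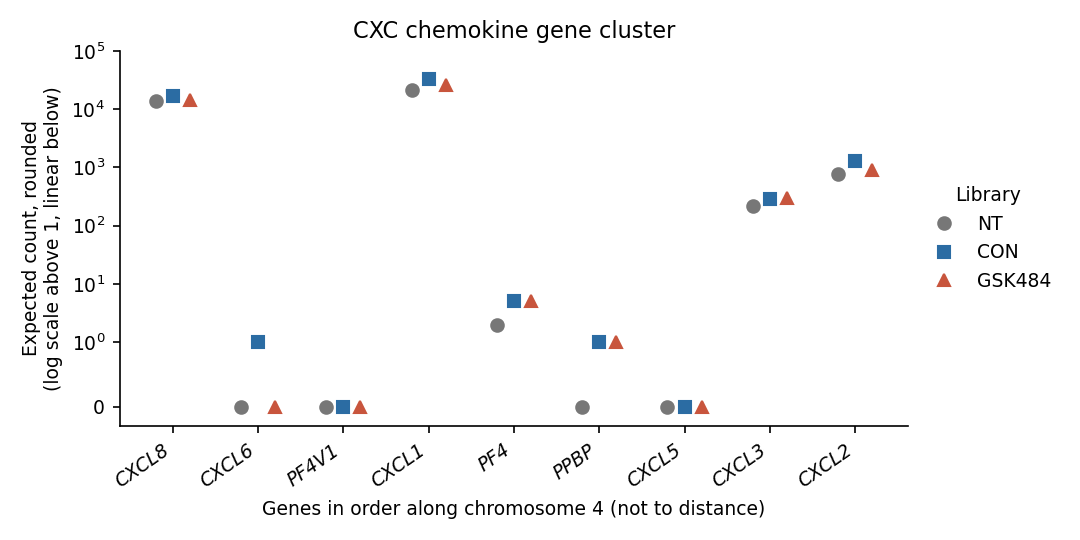
Rounded expected counts of the 9 CXC chemokine genes of the chromosome 4 cluster, in chromosomal order and not to distance, with 1 point per library and a scale that is linear below 1 and logarithmic above. CXCL8, CXCL1, CXCL3 and CXCL2 hold 219 to 32446 counts in each library, whereas CXCL6, PF4V1, PF4, PPBP and CXCL5 hold 5 or fewer.

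GSK484 against CON is the comparison matched for time. CXCL17 (ENSG00000189377), a mucosal chemokine, was the only one of the 9 measured genes that differed by at least 2-fold here. Its counts were 144 in CON and 52 with GSK484, or 1.58 CPM (interval 1.33 to 1.86) and 0.67 CPM (0.50 to 0.88). The log2 fold was -1.23 (interval -1.73 to -0.77), 2.35-fold lower, and all its expected counts were whole numbers, with no sign of reads divided among genes. It met the rule of size used in place of a test, which asks for a fold of at least 2, a counting interval without 0 and at least 1 CPM in either library. By that rule 0.466% of the 13312 measured genes differed in either direction and 0.27% were lower. CXCL17 was among the genes chosen for this comparison, so nothing is read from that share.

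In NT the level of CXCL17 lay between those of the other libraries. It had 63 counts, or 0.88 CPM (interval 0.68 to 1.13). CON was above NT, with a log2 fold of 0.83 (interval 0.40 to 1.29), and GSK484 was not separated from NT (-0.40, interval -0.96 to 0.15). The level in CON is therefore the one that stands apart in counts from both others. The effective length of CXCL17 differed as well, at 984.3 bases in NT, 881.4 in CON and 994.8 with GSK484. This length depends on how reads were assigned to its transcripts, of which GENCODE lists 2, of 1172 and 748 bases. In TPM, which takes that length into account, the log2 fold of GSK484 against CON was -1.24.

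CCL28 and CCL20, the other chemokines best known from mucosal surfaces, were within counting error for GSK484 against CON. CCL28 had 204 counts in NT, 293 in CON and 266 with GSK484, and its log2 fold for GSK484 against CON was 0.09 (interval -0.16 to 0.33). CCL20 had 92, 129 and 107 counts in the same order, and its log2 fold was -0.04 (interval -0.43 to 0.34). A difference of either gene between GSK484 and CON was not detectable at this depth, although the intervals exclude a fold of 2.

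The neutrophil-attracting genes differed from each other in direction. CXCL1 was at 298.3 CPM in NT, 355.7 in CON and 326.4 with GSK484, so that GSK484 lay between the other libraries. Its log2 fold for GSK484 against CON was -0.12 (interval -0.15 to -0.10), but -0.03 without the GC and length trend and -0.0039 in TPM. The TPM value is read beside a shift of the whole table, where the median log2 fold of all measured genes was 0.0981 in TPM and -0.0047 in CPM. CXCL1 thus lay below the median gene in TPM too. CXCL2, at 10.9, 14.0 and 11.3 CPM, was highest in CON, and its log2 fold was -0.30 (interval -0.43 to -0.17). CXCL3 was highest in GSK484 instead, at 3.07, 3.15 and 3.88 CPM, with a log2 fold of 0.30 against CON (interval 0.06 to 0.54). The expected counts of CXCL1, CXCL2 and CXCL3 were not all whole, so that some of their reads were divided among genes. The longest identical stretch of the annotated coding transcripts was 77 bases for CXCL1 and CXCL2, 97 for CXCL2 and CXCL3 and 55 for CXCL1 and CXCL3, where reads were 125 bases long.

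The direction of CXCL8 depended on whether GC content and length were taken into account. It was at 193.6 CPM in NT, 180.2 in CON and 184.6 with GSK484, and its log2 fold for GSK484 against CON was 0.04 (interval 0.0029 to 0.07). Its longest transcript has 33.4% GC, the lowest of the 10 genes. The smooth trend over all genes at the GC content and length of CXCL8 was 0.28, and with it removed the log2 fold was -0.24. Within each library CXCL8 had 0.65 counts per count of CXCL1 in NT (interval 0.64 to 0.66), 0.51 in CON (0.50 to 0.52) and 0.57 with GSK484 (0.55 to 0.58). The counting intervals of this ratio did not overlap between libraries. The ratio does not depend on library scaling, but its order over the libraries does depend on the trend. After removal of the trend, CXCL8 and CXCL1 had log2 folds of 0.35 and 0.14 for CON against NT. They had -0.24 and -0.03 for GSK484 against CON, and 0.11 and 0.12 for GSK484 against NT. CXCL8 was then higher relative to CXCL1 in CON than in NT or GSK484, opposite to the ratio of counts. The GC content of CXCL1 is 45.6%, and the part of GC content alone in the ratio was not tested.

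Of the membrane-bound chemokines, CXCL16 was lower and CX3CL1 was not separated. CXCL16 was at 33.5 CPM in NT, 37.3 in CON and 32.5 with GSK484, with a log2 fold of -0.20 for GSK484 against CON (interval -0.27 to -0.12). CX3CL1 was at 9.64, 10.5 and 11.4 CPM, with a log2 fold of 0.13 (interval -0.0071 to 0.26), within counting error. In all, 4 of the 9 measured genes were lower beyond counting error (CXCL1, CXCL2, CXCL16 and CXCL17) and 2 higher (CXCL3 and CXCL8). Over all 13312 measured genes 27.2% were lower and 26.8% higher, and the median of the 9 log2 folds was -0.04 against -0.0047 for all genes.

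**Figure D3:**
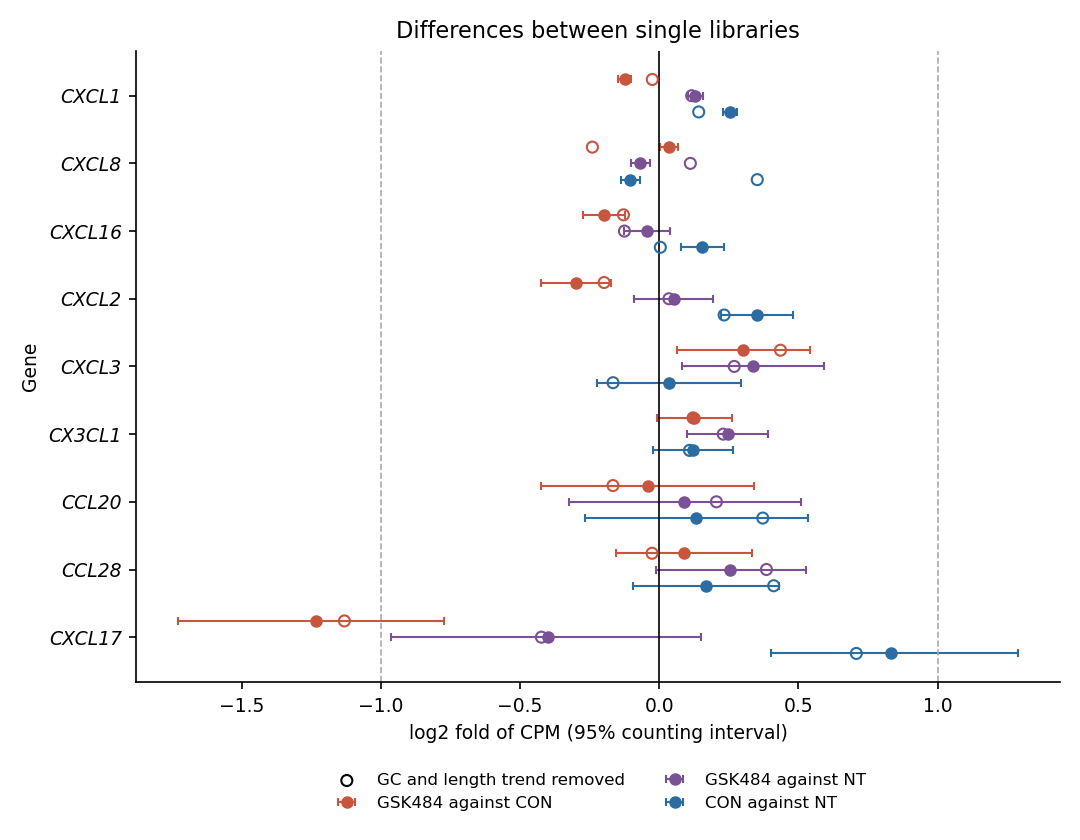
Log2 folds of CPM of the 9 measured chemokine genes in the 3 comparisons, with 95% counting intervals; open circles are the same folds with the trend on GC content and length removed, and dashed lines mark a fold of 2. Only CXCL17 for GSK484 against CON (-1.23) lies past a dashed line, and CXCL8 is the gene whose call has another sign in the open circles in all 3 comparisons.

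GSK484 against NT and CON against NT share libraries with the first comparison and with each other, so their values are given side by side. Against NT, GSK484 was higher beyond counting error for CXCL1 (log2 fold 0.13), CXCL3 (0.34, interval 0.08 to 0.59) and CX3CL1 (0.25, interval 0.10 to 0.39), and lower for CXCL8 (-0.07). Over all measured genes 27.2% were higher and 29.3% lower. CON was higher than NT for CXCL1 (0.25), CXCL2 (0.35, interval 0.22 to 0.48), CXCL16 (0.16, interval 0.08 to 0.23) and CXCL17, and lower for CXCL8 (-0.10), where 35.3% of all measured genes were higher and 29.2% lower. None of the 10 genes met the rule of size in either comparison, which 0.548% and 1.67% of measured genes did. With the GC and length trend removed, CXCL8 was at 0.11 for GSK484 against NT and at 0.35 for CON against NT, and CXCL16 was at 0.0036 for CON against NT. CCL28 was then higher beyond counting error than in NT, at 0.38 (interval 0.12 to 0.66) with GSK484 and 0.41 (interval 0.15 to 0.68) in CON.

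Genes whose relative levels over the libraries were most like those of CXCL17 were sought in a filtered part of the table. CXCL17 itself, below 1 CPM in NT and GSK484, would not pass that filter. Genes as low as CXCL17 were thus left out. Among 7722 genes with a symbol, whole counts and at least 1 CPM in every library, the smallest distances between centred log2 CPM profiles over the 3 libraries were those of PRR15L (0.22), VTCN1 (0.22), LGALS9 (0.28), ACHE (0.31), KRT13 (0.32) and BPIFB1 (0.33). KRT13 is a keratin of non-cornified squamous epithelium, VTCN1 an inhibitory B7 family ligand, and BPIFB1 a secreted airway protein. PRR15L was at 2.26 CPM in NT, 3.25 in CON and 1.57 with GSK484, and VTCN1 at 1.70, 2.49 and 1.27. A profile over 3 libraries has few degrees of freedom, and such likeness describes these libraries only.

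Mucosal secretory genes were a list written with earlier results of these data known. Of its 17 genes 10 were measured, and 7 of them were lower in GSK484 than in CON beyond counting error and 0 higher, where 27.2% of all measured genes were lower. The median log2 fold was -0.53 before and -0.36 after removal of the GC and length trend, beside -0.0047 for all genes. That removal left 7 lower and 1 higher, and scaling by total counts also gave 1 higher. Shares of all genes were counted with the trend kept and under the main library scaling only. Recounts under other settings, here and for the lists below, therefore have no share beside them. BPIFB1 was at 1.12 CPM in NT, 1.98 in CON and 1.12 with GSK484 (log2 fold -0.83 against CON, interval -1.21 to -0.45). SCGB1A1, a secretoglobin of airway club cells, was at 1.655, 1.688 and 1.001 CPM (-0.75, interval -1.17 to -0.35). AGR2, a protein folding enzyme of mucus-producing cells, was at 23.2, 28.15 and 17.8 CPM (-0.66, interval -0.76 to -0.57). SPDEF, a transcription factor of goblet cells, was at 1.501, 1.853 and 1.168 CPM (-0.66, interval -1.05 to -0.29). All 4 genes were lowest in GSK484, BPIFB1 about level with NT. The measured genes within counting error had positive folds against CON. These were MUC1 (0.39, interval -0.01 to 0.80), MUC20 (0.35, interval -0.10 to 0.80, with divided reads) and WFDC2 (0.08, interval -0.25 to 0.42). Against NT, 5 of the 10 genes were lower in GSK484 and 2 higher, MUC1 (0.77) and WFDC2 (0.55). The median against NT was -0.14, and 27.2% of all genes were higher and 29.3% lower. CON was higher than NT for 6 and lower for 0, beside 35.3% and 29.2% of all genes, with a median of 0.31. Without the GC and length trend CON was higher for 3 and lower for 1, with a median of 0.096.

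The NF-kB machinery held genes of both directions. Of 15 measured subunits, kinases and inhibitors, 8 were higher and 3 were lower with GSK484 than with the control compound. Of all measured genes 26.8% were higher and 27.2% lower, and the median log2 fold of the list was 0.06. That share, here and for the other lists, is not matched for count level, and counting intervals are narrower at higher counts. Without the GC and length trend 6 were higher and 3 lower, and 9 and 3 when scaled by total counts. BCL3, a nuclear partner of the p50 and p52 subunits, was at 25.7 CPM in NT, 37.1 in CON and 24.2 with GSK484 (-0.61, interval -0.70 to -0.53). It was highest in CON, as CXCL17 was, and a link between these genes was not tested. NFKBIA, the inhibitor that NF-kB induces, was at 65.1, 71.1 and 60.5 CPM (-0.23), and TNFAIP3, an induced ubiquitin editing enzyme, at 10.02, 8.55 and 10.19 (0.25). CHUK, a kinase of the inhibitor, was at 26.0, 17.8 and 21.4 CPM (0.27, or -0.0035 without the trend).

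Among 18 measured inducing cytokines, receptors and adaptors 4 were higher and 5 lower, with a median of 0.02, against the same 26.8% and 27.2% of all genes. Scaled by total counts, 7 were higher and 4 lower. IL1A, the epithelial alarm cytokine that induces CXCL1 and CXCL8, was at 110.3 CPM in NT, 77.8 in CON and 107.1 with GSK484 (0.46, interval 0.42 to 0.51). It was lowest in CON, where CXCL17 and CXCL1 were highest, and a link with either was not tested. MYD88, the adaptor of interleukin 1 and Toll-like receptors, was lower in GSK484, at 30.8, 31.0 and 23.4 CPM (-0.40). IL36RN (-0.57, interval -1.02 to -0.13), an antagonist of interleukin 36, and TLR5 (-0.51, interval -0.82 to -0.20), the flagellin receptor, were lower too.

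Of 15 other NF-kB targets 3 were higher and 5 lower, with a median of -0.01, again beside 26.8% and 27.2% of all genes. The balance depended on the setting, with 6 higher and 3 lower when scaled by total counts, and 3 and 3 without the GC and length trend. LCN2, an iron-binding defence protein, was at 94.0 CPM in NT, 129.3 in CON and 83.6 with GSK484 (-0.63), while SAA1 (0.28, with divided reads) and BIRC3 (0.25, or -0.09 with the trend removed) were higher. IRF1 had a log2 fold of -0.12, or -0.05 with the trend removed, where the call is lost. Chemokine mRNAs with AU-rich elements are degraded through proteins such as ZFP36. Of 13 such decay factors and their regulators, 6 were higher and 5 lower, beside 26.8% and 27.2% of all genes, with a median of -0.0031. Without the GC and length trend 3 were higher and 7 lower, with a median of -0.095, and 7 and 3 when scaled by total counts. ZFP36 was at 43.8, 47.2 and 39.6 CPM (-0.25), and DUSP1, a phosphatase that limits the p38 kinase, at 22.2, 21.45 and 15.4 (-0.48). KHSRP was at 202.3, 195.8 and 229.4 CPM (0.23) and RC3H2 at 47.7, 34.3 and 43.05 (0.33, or 0.12 without the trend). The order of the libraries for RC3H2 was another in TPM, with 11.2 in NT, 20.75 in CON and 30.4 with GSK484.

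The proteases that release CXCL16 and CX3CL1 were expressed. ADAM10 was at 106.3 CPM in NT, 61.4 in CON and 85.85 with GSK484, and its log2 fold against CON was 0.48, or 0.25 without the GC and length trend. ADAM17, with divided reads, was at 49.6, 38.0 and 44.6 CPM (0.23, or 0.0095). RHBDF1, a carrier of ADAM17, was at 24.55, 30.5 and 26.5 CPM (-0.20). Both proteases were lowest in CON and highest in NT in CPM. Without the trend this did not hold for ADAM17, at 0.04 for GSK484 against NT and 0.03 for CON against NT. Of the 4 genes of this list 2 were higher with GSK484 than with the control compound, 1 without the trend, and 1 was lower, beside 26.8% and 27.2% of all genes.

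**Figure D4:**
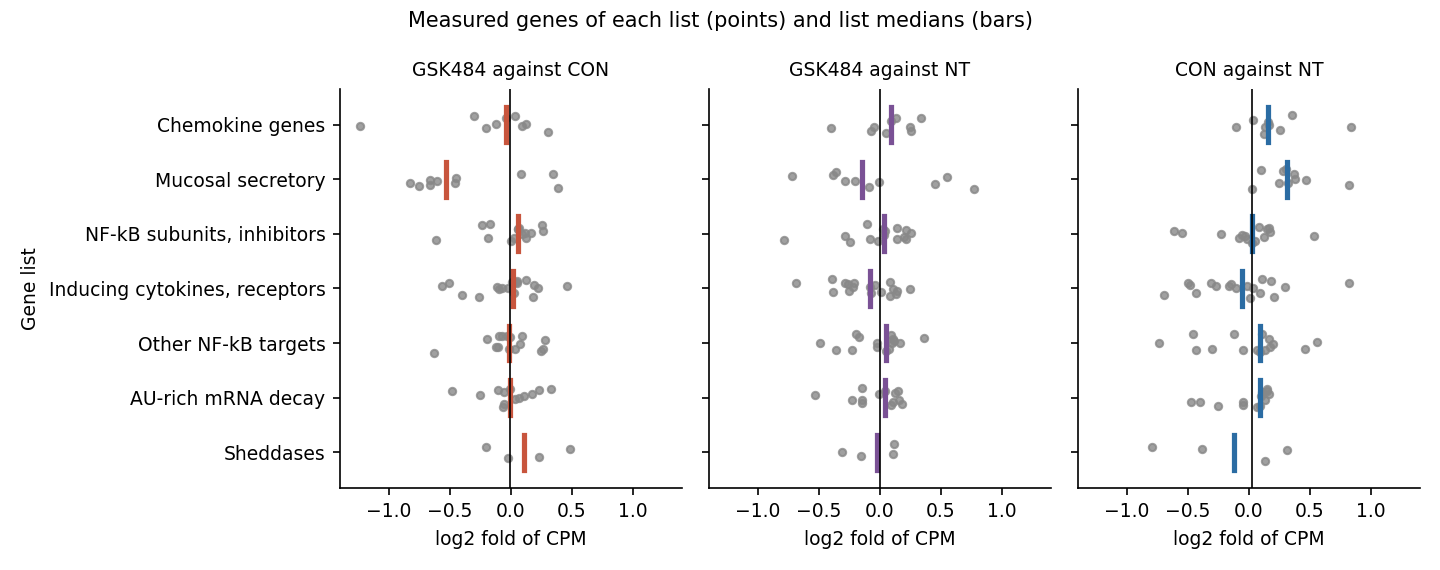
Log2 folds of CPM of the measured genes of 7 lists (points) with list medians (coloured bars) in the 3 comparisons; the black line is the median of all measured genes. For GSK484 against CON the mucosal secretory genes have a median of -0.53, and the medians of the other 6 lists lie between -0.04 and 0.11.

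The receptors of these chemokines were at most barely present. CXCR1 had 2 counts in NT, 3 in CON and 2 with GSK484, and CXCR2 had 2, 1 and 0. CCR6, the receptor of CCL20, had 2, 1 and 2 counts, and CX3CR1 had 2, 0 and 0. CXCR6, the receptor of CXCL16, was the most abundant of them, at 0.35 CPM in NT, 0.72 in CON and 0.55 with GSK484. For CXCR6, GSK484 and CON were not separated (log2 fold -0.39, interval -0.98 to 0.19), nor were GSK484 and NT (0.65, interval -0.09 to 1.43). CON was higher than NT (1.03, interval 0.36 to 1.77), with 66 counts against 25. CCR10, the receptor of CCL28, whose reads were divided, stayed at 0.14 CPM or less. The scavenging receptor ACKR1 was at 0 counts throughout, and ACKR2 had 9, 6 and 15 counts. Of all 24 receptor genes only CXCR5, which binds CXCL13 and none of the 10 chemokines, was measured, with an expected count of 1229.7 in CON against 0 in NT and 0.31 with GSK484, from divided reads. Of 36 other chemokine ligand genes 26 were matched and 0 were measured. CCL2, a monocyte attractant, was the most abundant of these at 0.34 CPM in NT, 0.32 in CON and 0.46 with GSK484, followed by CCL22 at 0.14, 0.25 and 0.12 CPM. CCL27, CXCL10, CXCL11 and PF4 stayed at 0.12 CPM or less.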

How the data were processed

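The authors deposited 1 gene table per library. Its expected counts are RSEM estimates of reads per gene, and its TPM values are scaled by effective length, per the file headers. RSEM and hg19 are named in the submitters' processing notes; for the aligner, annotation release and strand setting, nothing is given in the sources used. Libraries came from a stranded total RNA kit, per the labels' protocols. Expected counts were scaled with TMM factors of edgeR 4.0.16 (R 4.3.3), which were 1.01 for NT, 0.98 for CON and 1.01 for GSK484. Log2 folds had 0.5 counts added in proportion to library size, with exact conditional binomial (Clopper-Pearson) intervals on rounded counts, computed with SciPy 1.17.1. CPM intervals are exact Poisson, and TPM intervals scale them. PCR copies were not separable from molecules. The code for folds and intervals was checked on simulated Poisson counts, which hold no variation between libraries, GC trend or divided reads. The GC and length trend was a natural spline (4 degrees of freedom each) over 8648 protein-coding genes of at least 10 mean CPM, with GC content from GENCODE transcripts. Counts within 0.005 of a whole number were called whole.

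The members and lists were chosen with earlier results of these data known. Named genes are the 10 chemokines, their receptors, up to 4 genes per list beyond counting error whose GSK484 to CON folds were largest in size (up to 6 for ligands and receptors, by highest CPM where none qualified), and the 6 genes nearest to CXCL17. Some genes were named after their values were seen. They are CXCL6, PF4V1 and PPBP of the chromosome 4 cluster, MUC1, MUC20 and WFDC2 of the mucosal list, and the cell type markers given by name. Of the 56632 gene IDs, 50275 had a symbol. List entries with no match, 10 of them ligands, were not analysed here. FPKM values were not used. Alternatives were other scalings (total counts, DESeq2 1.42.0 size factors), TPM with a pseudocount of 0.05, the trend removed, other count and fold minimums, and a prior count of 2. The leukocyte marker list is reported in part, since 1 of its genes is not reported here.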

Additional observations from a re-analysis of the deposited data

How the results depend on the processing

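With 1 library per group no replicate could be left out, and counting error is the only error these data give. CXCL17 kept its direction and its fold of at least 2 for GSK484 against CON under every alternative run. With the GC and length trend removed, CXCL8 reversed to -0.24 for GSK484 against CON, 0.11 for GSK484 against NT and 0.35 for CON against NT; the cause was not tested beyond the trend itself. That setting gave 1 chemokine gene higher in GSK484 than in CON in place of 2 and 5 lower in place of 4, with a median of -0.13 in place of -0.04. It gave 5 higher in GSK484 than in NT in place of 3, and 1 lower, which was CXCL16 (-0.13, interval -0.21 to -0.04) and not CXCL8. For CON against NT it gave 5 higher in place of 4 and 0 lower in place of 1. Shares of all genes were not recounted under the alternatives, so these counts have no share beside them. Among only the 7 genes with whole counts, an alternative added after seeing the data, 1 was higher and 2 lower for GSK484 against CON, 1 was higher for GSK484 against NT, and 2 were higher for CON against NT, since fewer genes enter. A fold minimum of 1.5 added 1 gene, CXCL17, for CON against NT. The deposited TPM has no counts, so it gave no count of genes beyond counting error. Of 153 recomputed folds of chemokine genes, 136 stayed within the counting interval, 14 moved outside it with the same sign, and 3 reversed. The 153 include folds of the genes with whole counts under that alternative, which could not change because it only leaves genes out. The number that stayed is therefore not a measure of stability. No paired analysis was possible because each group has 1 library and the labels carry no replicate numbers.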

Other observations

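Some chemokine receptor genes outside the naming rule, chosen after their values were seen, differed between libraries at low counts. GPR35, which has been proposed and disputed as a CXCL17 receptor, had 2 counts in NT, 17.2 in CON and 5 in GSK484, from divided reads (log2 fold of GSK484 against CON -1.47, interval -3.33 to -0.04). CCR1, a receptor of inflammatory CC chemokines, had 48 counts in NT, 30 in CON and 17 in GSK484 (log2 fold of GSK484 against NT -1.60, interval -2.52 to -0.80). ACKR3, a scavenging receptor of CXCL12, had 11 counts in NT, 7 in CON and 0 in GSK484. All 3 genes were below 1 CPM in every library.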
